A study of Mus musculus with 6 samples.

Results

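Transcripts of skeletal muscle were followed in cultures of primary dermal fibroblasts from newborn mice, through 34 marker genes of satellite cells, myoblasts and myotubes. The genes were given by name, and all 34 were found among the 43629 genes of the deposited tables. RNA was sequenced from 6 cultures at passage 1, after 6 days in culture. In 3 of them, called caNrf2, the cells came from mice with Col1a2Cre, a Cre recombinase expressed in fibroblasts, and a caNrf2 transgene, a mutant form of the transcription factor Nrf2 that is always active. The other 3, called ctrl, came from mice with Col1a2Cre alone. All 6 mice were of a mixed background, 50% C57Bl/6 and 50% FVB/N. The sample titles give only the group and a replicate number, so each library was taken as a separate mouse, and p-values measure the spread between these libraries. Cre in this line is driven for expression in fibroblasts, and whether any muscle cell in the cultures had recombined was not tested.

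Skeletal muscle forms from satellite cells and myoblasts, which withdraw from the cell cycle, turn on the transcription factor myogenin and fuse into multinucleated myotubes. Myotubes then build the sarcomere, the repeating unit of actin and myosin filaments, and the membrane system that releases calcium to trigger contraction. Mouse skin holds a thin sheet of striated muscle, the panniculus carnosus, below the dermis. The myogenic regulators bind the E-box, a short DNA element with the letters CANNTG, of which CAGCTG is a form favoured by MyoD and myogenin.

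Windows of 300 bases around the annotated start (250 before, 50 after) were available from RefSeq, build GRCm38.p6, for 29 of the 34 genes, 33 windows in all. CAGCTG, which reads the same on both strands and is part of the CANNTG set, stood in 14 of these windows (42.4%), against 16.3% of all 32851 windows. The 14 windows belong to 13 genes, since Tnni1 has 2 overlapping windows that hold the same site. CANNTG on either strand stood in 84.8% of the marker windows and 72.3% of all. A form of the MEF2 element, CTA and TAG spaced by any 4 bases, stood in 12.1% of the marker windows and 3.69% of all. TGACNNNGC, the core of the antioxidant response element bound by Nrf2, stood in 15.2% of the marker windows and 12.4% of all, both strands counted. Of the 20 markers that had a window and were called higher below, 9 held CAGCTG, as did 4 of the 7 tested markers that had a window and were not called. These counts describe letters in a window, not binding. The 4 windows below are shown because they hold CAGCTG and belong to genes that were called higher, 2 receptor subunits, a myosin light chain and a myosin-binding protein, with CAGCTG in capitals and each read 5′ to 3′ in the direction of the gene.
Chrna1 (chr2:73580289-73580588, minus strand): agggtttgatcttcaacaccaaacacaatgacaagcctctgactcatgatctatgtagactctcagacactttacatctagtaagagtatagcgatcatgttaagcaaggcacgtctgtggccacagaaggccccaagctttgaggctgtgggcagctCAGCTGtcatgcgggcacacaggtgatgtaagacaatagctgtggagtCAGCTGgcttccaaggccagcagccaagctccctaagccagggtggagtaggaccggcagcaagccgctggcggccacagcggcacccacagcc
Chrng (chr1:87205561-87205860, plus strand): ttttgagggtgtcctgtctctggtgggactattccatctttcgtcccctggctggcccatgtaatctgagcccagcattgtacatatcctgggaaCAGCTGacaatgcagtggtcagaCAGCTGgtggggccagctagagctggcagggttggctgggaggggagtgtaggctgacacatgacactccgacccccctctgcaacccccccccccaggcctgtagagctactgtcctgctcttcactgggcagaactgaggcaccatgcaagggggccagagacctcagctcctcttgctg
Mylpf (chr7:127211358-127211657, plus strand): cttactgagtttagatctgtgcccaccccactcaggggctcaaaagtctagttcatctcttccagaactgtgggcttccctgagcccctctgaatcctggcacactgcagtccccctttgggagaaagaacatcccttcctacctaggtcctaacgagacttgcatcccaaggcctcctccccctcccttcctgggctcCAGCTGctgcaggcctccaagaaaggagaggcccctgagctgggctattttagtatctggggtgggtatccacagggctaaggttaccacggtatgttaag
Mybph (chr1:134193198-134193497, plus strand): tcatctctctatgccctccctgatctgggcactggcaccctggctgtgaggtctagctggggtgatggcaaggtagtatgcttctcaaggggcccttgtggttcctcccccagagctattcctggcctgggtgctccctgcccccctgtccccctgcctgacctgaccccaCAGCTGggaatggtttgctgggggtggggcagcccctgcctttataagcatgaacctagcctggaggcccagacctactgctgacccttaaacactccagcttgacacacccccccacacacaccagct

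In Chrna1 the elements began 92 and 44 bases before the start, in Chrng 155 and 132, in Mylpf 51 and in Mybph 79. In Chrng a TGACNNNGC match, counting both strands, began 151 bases before the start, within the farther CAGCTG.

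Depth lay between 30168400 and 45164208 expected counts per library, so that 1 count was worth 0.0223 to 0.0331 CPM, the count scaled to library size. Nfe2l2, the gene of Nrf2, was at 248, 332 and 275 TPM, the length-corrected abundance, in caNrf2 libraries, against 87.8, 80.2 and 88 TPM in ctrl libraries, with no overlap. Fibroblast genes dominated all 6 libraries. Col1a1, which encodes a chain of type I collagen, averaged 3632 TPM in caNrf2 and 5567 TPM in ctrl. Below, a gene is called when the adjusted p of edgeR's quasi-likelihood test, over 15341 genes tested, was under 0.05. CPM carries the test scale, while TPM corrects for transcript length and is used to compare genes with each other.

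Markers of differentiated muscle were present at low to moderate levels in every library and were higher in caNrf2 cultures. Of the 34 markers, 22 were called higher, 10 were tested and not called, and 2, Pax7 and Myf5, were too low to be tested. Among all genes tested, 12.5% were called higher. All 32 tested markers had a positive log2 fold change, from 0.42 for Tnnt2 to 1.09 for Chrnd, with a median of 0.77, while the median of all genes tested was -0.00308. None was called lower (0 by edgeR, DESeq2 or limma-voom, and 0 in any of them when p was left unadjusted). In CPM, 26 of the 32 had no overlap between the groups with caNrf2 on top, as had 22% of all genes tested, and 0 had ctrl on top, as had 20.1% of all genes tested. In TPM, 22 of the 32 had no overlap with caNrf2 on top, and the share over all genes was not taken in TPM. Of the 32, Ckm alone reached the filter's minimum in all caNrf2 but not in all ctrl libraries. In bulk RNA, more cells of a type and more RNA per cell cannot be told apart.

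**Figure D1:**
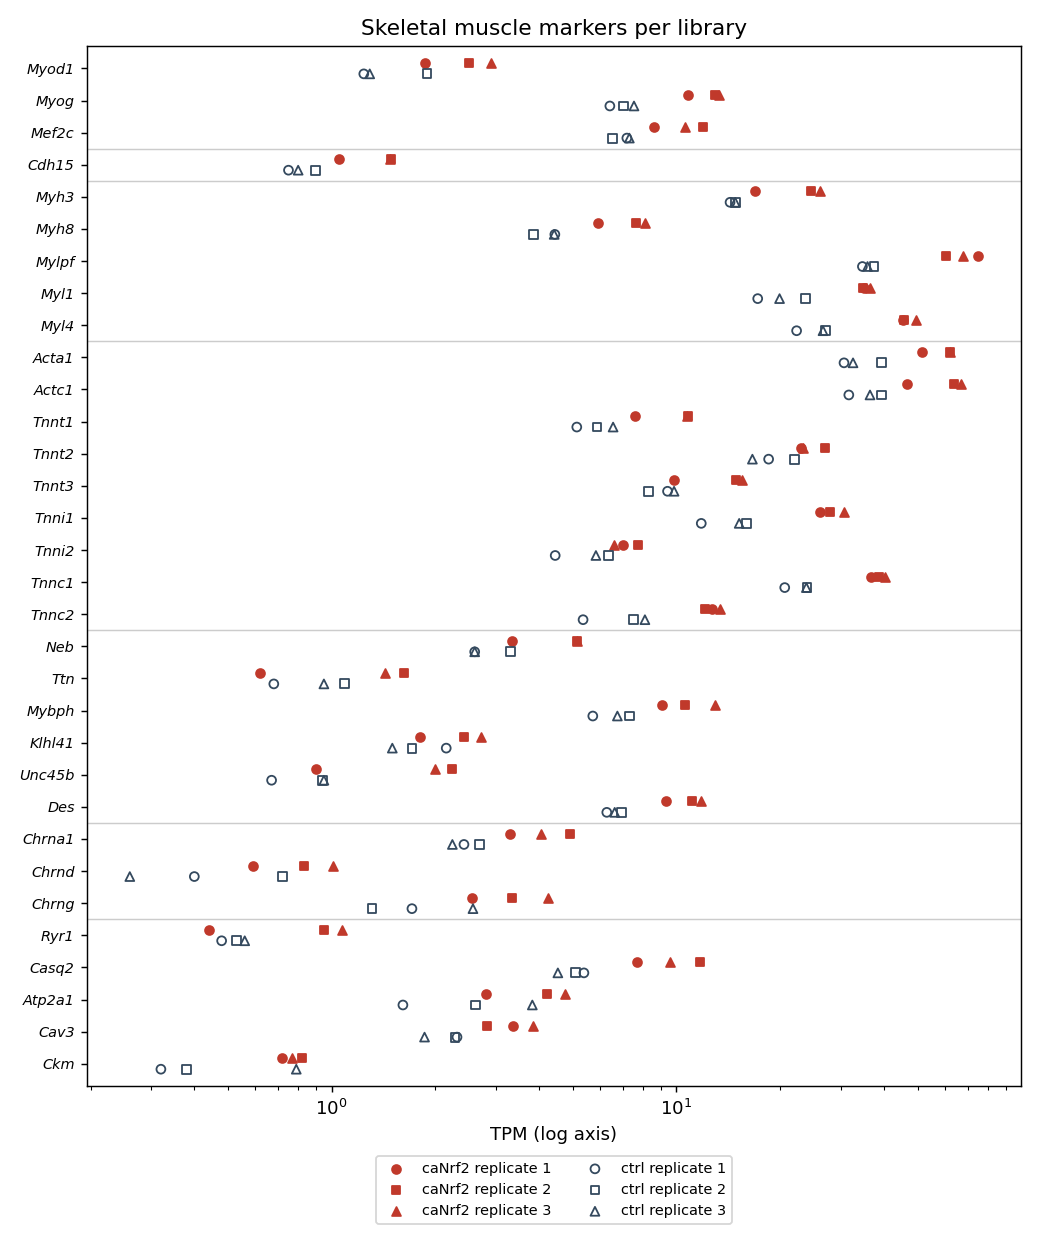
TPM of the 32 tested markers in each library on a log axis, with caNrf2 replicates filled and ctrl replicates open, grouped by role from regulators (top) to calcium handling and energy (bottom). Levels run from 0.26 TPM for Chrnd in ctrl replicate 3 to 74.9 TPM for Mylpf in caNrf2 replicate 1, and most rows show the filled symbols to the right of the open ones.

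The earliest markers were nearly absent. Pax7, the transcription factor that marks satellite cells, held 0, 4 and 1 counts in caNrf2 libraries and 2, 0 and 1 in ctrl libraries. Myf5, a regulator of myoblast commitment, held 0, 0 and 1 counts in caNrf2 libraries and 0 in each ctrl library. A count of 0 allows up to 3 counts, or 0.067 to 0.0992 CPM per library, so no fold change is given for either gene.

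Myod1, which commits cells to the myoblast fate, was present at 1.95, 2.39 and 2.79 CPM in caNrf2 libraries and 1.18, 1.79 and 1.22 CPM in ctrl libraries. The groups did not overlap in CPM, with ctrl replicate 2 closest to the caNrf2 range. In TPM they did, with caNrf2 replicate 1 at 1.86 and ctrl replicate 2 at 1.89. Its log2 fold change of 0.75 (SE 0.24) missed the threshold in edgeR (adjusted p = 0.0522). It passed with DESeq2 (adjusted p = 0.0417), without a filter (0.0367), with a stricter filter (0.0482), without ctrl replicate 2 (log2 fold change 0.98) and without caNrf2 replicate 1 (0.87). Cdh15, which encodes M-cadherin, an adhesion protein of satellite cells and myoblasts, was at 1.73, 2.23 and 2.23 CPM in caNrf2 libraries and 1.13, 1.34 and 1.19 CPM in ctrl libraries. It was called (log2 fold change 0.76, SE 0.20, adjusted p = 0.0299). The call was lost when any single library other than caNrf2 replicate 1 was left out, at log2 fold changes of 0.69 to 0.84.

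Myog, the gene of myogenin, was several times more abundant than Myod1 in TPM. It stood at 9.04, 9.79 and 10.2 CPM in caNrf2 libraries and 4.85, 5.27 and 5.65 CPM in ctrl libraries. The groups were well apart, and Myog was called higher at 1.84-fold (log2 fold change 0.88, SE 0.12, adjusted p = 0.00101). Mef2c, a partner of the myogenic regulators that is also expressed by other cell types, was at 31.7, 36.8 and 34.4 CPM in caNrf2 libraries and 24.3, 20 and 21.8 CPM in ctrl libraries (log2 fold change 0.64, SE 0.10, adjusted p = 0.00219).

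Both developmental myosin heavy chains and all 3 light chains on the list were called higher. Myh3, the embryonic heavy chain, was at 60.3, 79.8 and 85.1 CPM in caNrf2 libraries, against 46.4, 47.8 and 47.8 CPM in ctrl libraries. Ctrl libraries lay within a narrow band and caNrf2 replicate 1 lay nearest to it (log2 fold change 0.67, SE 0.12, adjusted p = 0.005). Myh8, the perinatal heavy chain, was at 21.3, 25 and 26.8 CPM in caNrf2 libraries and 14.4, 12.6 and 14.4 CPM in ctrl libraries (0.82, SE 0.11, adjusted p = 0.000952). Myh3 exceeded Myh8 in TPM by 2.86 to 3.23 times in caNrf2 and 3.23 to 3.85 times in ctrl libraries. Reads shared between the near-identical myosin heavy chain genes were divided by the authors' estimate, so their separate values are less certain.

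Mylpf, the regulatory light chain of fast skeletal muscle, had the highest mean TPM of the 34 in both groups, 67.8 ± 7.18 in caNrf2 and 35.9 ± 1.38 in ctrl (SD, n = 3 each). In CPM it was at 27.4, 21.2 and 22.5 in caNrf2 libraries and 12, 13.3 and 12.7 in ctrl libraries, with no overlap. It was called higher at 1.87-fold (SE of the log2 fold change 0.11, edgeR adjusted p = 0.000674). Myl4, the embryonic and atrial light chain, averaged 21 ± 1.18 CPM in caNrf2 and 11.2 ± 1.02 CPM in ctrl (SD, n = 3 each), and had the smallest adjusted p of the list (log2 fold change 0.91, edgeR adjusted p = 0.000315). Myl1, the alkali light chain of fast muscle, averaged 13.5 ± 0.947 CPM in caNrf2 and 7.35 ± 0.598 CPM in ctrl (0.88, edgeR adjusted p = 0.000685).

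The sarcomeric actins were close to Mylpf in abundance, and Actc1 had the highest TPM of the markers in 3 of the 6 libraries, with Mylpf highest in the other 3. Acta1, skeletal alpha-actin, was at 41.1, 45.1 and 45.4 CPM in caNrf2 libraries and 22.1, 28.2 and 23.3 CPM in ctrl libraries (log2 fold change 0.84, SE 0.10, adjusted p = 0.000689). Actc1, cardiac alpha-actin, which developing skeletal muscle also makes, was at 38.2, 47.6 and 50.2 CPM in caNrf2 libraries and 23.5, 29.1 and 26.9 CPM in ctrl libraries (0.77, SE 0.12, adjusted p = 0.00245). Neither gene showed overlap between the groups. The ratio of Acta1 to Actc1 in TPM was 0.933 to 1.11 in caNrf2 and 0.891 to 0.998 in ctrl libraries, so the pair stood at about equal levels. Both resemble Acta2, smooth muscle actin, which averaged 2588 TPM in caNrf2 and 1796 TPM in ctrl. Reads assigned between these paralogs are therefore uncertain.

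Of the 7 troponin genes, which form the calcium switch of the thin filament, 6 were called higher. Tnni1, the slow inhibitory subunit, was at 15.1, 14.5 and 15 CPM in caNrf2 libraries and 6.15, 8.46 and 7.83 CPM in ctrl libraries (log2 fold change 0.99, SE 0.13, adjusted p = 0.000841). Its fast counterpart Tnni2 was at 2.63, 2.68 and 2.26 CPM in caNrf2 libraries and 1.47, 2.17 and 1.98 CPM in ctrl libraries, without overlap, and was not called (0.43, SE 0.20, adjusted p = 0.17). The TPM ratio of Tnni1 to Tnni2 was 3.6 to 4.65 in caNrf2 and 2.53 to 2.65 in ctrl libraries. That difference between the 2 genes was not tested.

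The calcium-binding subunits Tnnc1 (slow and cardiac) and Tnnc2 (fast) were both called, at log2 fold changes of 0.82 (SE 0.10, adjusted p = 0.000745) and 0.93 (SE 0.19, adjusted p = 0.00861). Tnnc1 averaged 38.5 ± 1.83 TPM in caNrf2 and 22.8 ± 1.91 TPM in ctrl (SD, n = 3 each), and Tnnc2 averaged 12.7 ± 0.696 TPM in caNrf2 and 6.99 ± 1.44 TPM in ctrl. Among the tropomyosin-binding subunits, slow Tnnt1 was called at 0.80 (SE 0.16, adjusted p = 0.00894). Fast Tnnt3 (0.65, SE 0.17, adjusted p = 0.0247) and cardiac Tnnt2 (0.42, SE 0.11, adjusted p = 0.0313) were called with less room. Tnnt2 lost its call without ctrl replicate 1 (0.38) or 3 (0.35) or caNrf2 replicate 2 (0.35) or 3 (0.44). Tnnt3 lost its call without ctrl replicate 1 (0.66) or 2 (0.57) or caNrf2 replicate 2 (0.57) or 3 (0.57).

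**Figure D2:**
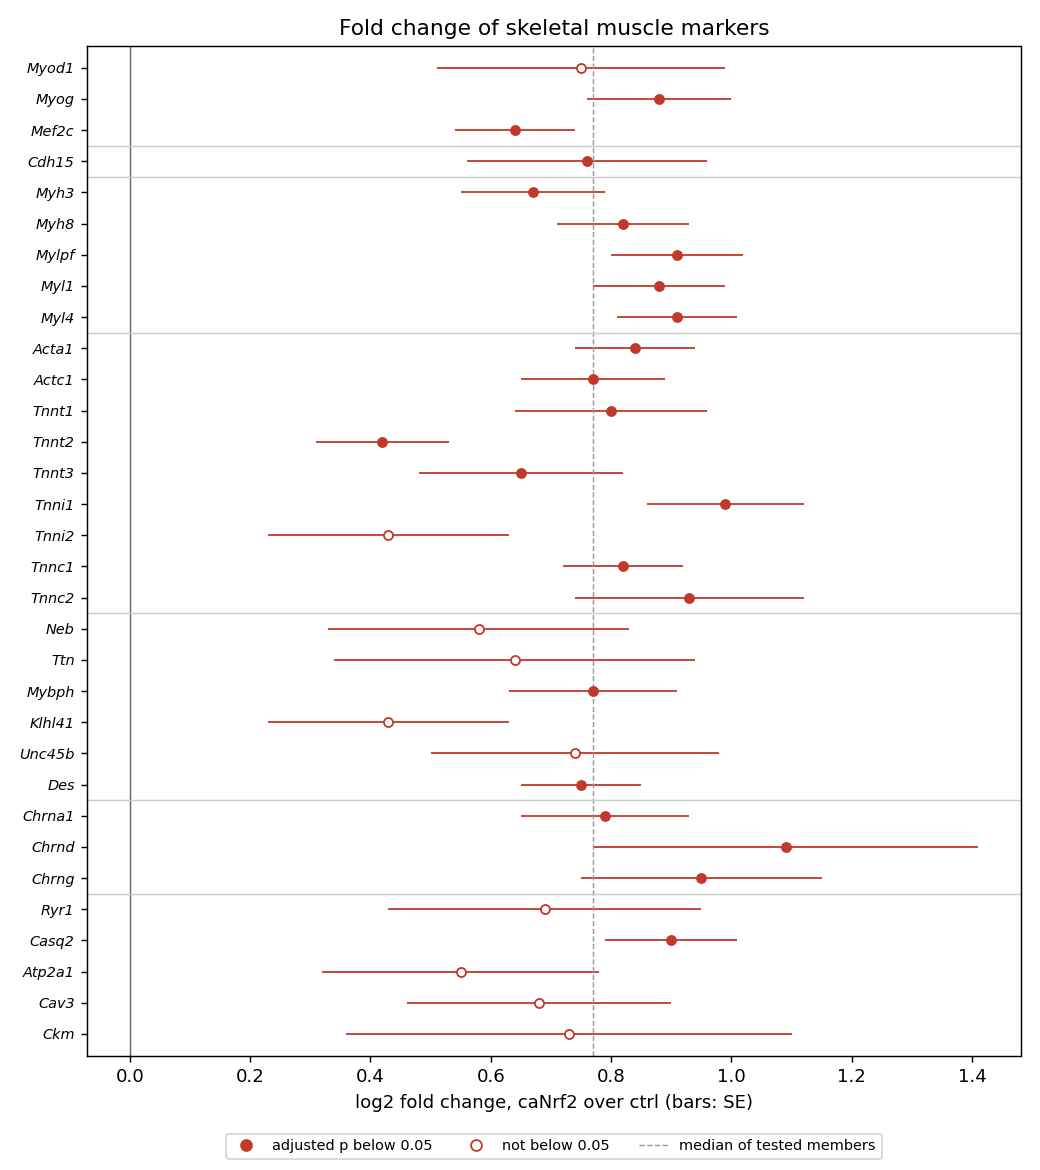
Log2 fold change, caNrf2 over ctrl, of the 32 tested markers from edgeR, with bars of 1 SE, filled points for the 22 called and open points for the 10 not called, and a dashed line at the median of 0.77. All points lie right of 0, between 0.42 and 1.09.

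Among structural and assembly proteins, Mybph and Des were called. Mybph, myosin-binding protein H, was at 9.42, 10.1 and 12.3 CPM in caNrf2 libraries and 5.41, 6.85 and 6.28 CPM in ctrl libraries (log2 fold change 0.77, SE 0.14, adjusted p = 0.00558). Des, the intermediate filament desmin of all muscle types, was at 14.1, 16.2 and 16 CPM in caNrf2 libraries and 8.91, 9.06 and 9.55 CPM in ctrl libraries, with no overlap in either gene. Unc45b, a myosin chaperone, was not called (0.74, SE 0.24, adjusted p = 0.0551) but passed under 5 of 15 alternatives, at log2 fold changes of 0.74 to 0.92. Klhl41, a sarcomere assembly factor, was not called either (0.43, SE 0.20, adjusted p = 0.167), and its groups overlapped.

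The giant proteins were the exception in their spread. Ttn, titin, the molecular spring of the sarcomere, was at 19.1, 50.4 and 50.1 CPM in caNrf2 libraries and 24.1, 26.9 and 25.7 CPM in ctrl libraries. Neb, nebulin, which lies along the actin filament, was at 10.1, 20.8 and 22.3 CPM in caNrf2 libraries and 12.2, 12.2 and 11.2 CPM in ctrl libraries. In CPM, caNrf2 replicates 2 and 3 lay far above ctrl in both genes and caNrf2 replicate 1 below the lowest ctrl library. In TPM this held for Ttn, but Neb in caNrf2 replicate 1, at 3.33 TPM, was just above the highest ctrl library, at 3.3 TPM. Ryr1, the calcium release channel, was at 4.06, 7.96 and 9.05 CPM in caNrf2 libraries and 4, 4.42 and 4.69 CPM in ctrl libraries, so that caNrf2 replicate 1 fell within the ctrl range in CPM. In TPM it was at 0.44 in that library, below the lowest ctrl library at 0.48.

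None of the 3 was called over all libraries (log2 fold change of Ttn 0.64, SE 0.30, adjusted p = 0.169; Neb 0.58, SE 0.25, 0.138; Ryr1 0.69, SE 0.26, 0.0981). Without caNrf2 replicate 1 all 3 were called, Ttn at 0.97 (adjusted p = 0.000263), Neb at 0.86 (0.000916) and Ryr1 at 0.96 (0.0035). Ryr1 was also called with DESeq2 (adjusted p = 0.0402) and without a filter (0.0385).

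Long transcripts were low in caNrf2 replicate 1 across the whole transcriptome. Against the mean of the other caNrf2 libraries, its median difference on the log2(CPM + 1) scale was 0.22 for the 1632 genes under 1000 bases and -0.40 for the 135 genes over 10000 bases. In ctrl libraries the same medians lay between -0.02 and 0.01. Among markers, the CPM of caNrf2 replicate 1 was 0.379 times the mean of the other caNrf2 libraries for Ttn, 0.467 for Neb and 0.477 for Ryr1, and 1.25 times for Mylpf, one of the shortest. CaNrf2 replicate 1 was the lowest caNrf2 library for 23 of the 32 tested markers and for 39.6% of all genes tested. It was the highest for 3 of the 32 and for 39% of all genes tested. Ctrl replicate 1 was the lowest ctrl library for 22 of the 32 and for 38.3% of all genes tested. It was the highest for 6 of the 32 and for 37.6% of all genes tested. Without caNrf2 replicate 1, 26 markers were called higher, and the median log2 fold change was 0.87 in place of 0.77. What part transcript length played in each marker's value was not tested.

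**Figure D3:**
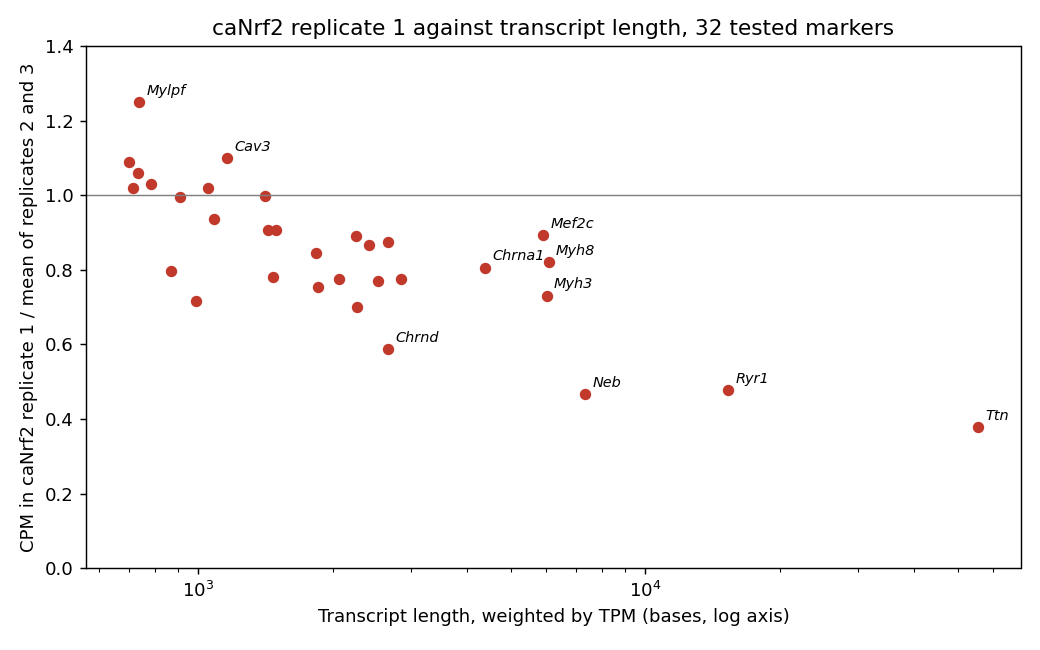
CPM in caNrf2 replicate 1 divided by the mean CPM of caNrf2 replicates 2 and 3 for the 32 tested markers, against transcript length on a log axis. Ttn, Ryr1 and Neb, the 3 longest, lie below 0.5. Most markers under 1000 bases lie near or above 1, but Tnnt1 lies at 0.797 and Tnnt3 at 0.715.

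The muscle-type acetylcholine receptor subunits on the list were all called higher. Chrna1, the ligand-binding alpha subunit, was at 8.5, 11.5 and 9.57 CPM in caNrf2 libraries and 5.66, 6.26 and 5.21 CPM in ctrl libraries (log2 fold change 0.79, SE 0.14, adjusted p = 0.00537). Chrng, the gamma subunit of the fetal receptor, was at 3.14, 3.88 and 4.24 CPM in caNrf2 libraries and 1.64, 1.85 and 2.37 CPM in ctrl libraries (0.95, SE 0.20, adjusted p = 0.0108). In CPM the groups did not overlap in either gene. In TPM those of Chrng did, with caNrf2 replicate 1 at 2.55 and ctrl replicate 3 at 2.57. Chrne, the epsilon subunit that replaces gamma in the adult receptor, had 0 counts in every library. Chrnd, the delta subunit, was low, with 31, 57 and 68 counts in caNrf2 libraries and 22, 31 and 12 in ctrl libraries. It was called (1.09, SE 0.32, adjusted p = 0.0398), but not without ctrl replicate 1 (1.13), 2 (1.26) or 3 (0.90) or caNrf2 replicate 2 (1.05) or 3 (0.87), nor with the replicate block (1.07, adjusted p = 0.0721).

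Of the calcium store and energy genes, Casq2 was called. Casq2, the calsequestrin of heart and slow or immature muscle, which buffers calcium in the sarcoplasmic reticulum, was at 10.6, 11.5 and 12.2 CPM in caNrf2 libraries and 6.26, 6.03 and 6.02 CPM in ctrl libraries. The log2 fold change was 0.90 (SE 0.11, adjusted p = 0.000519). Atp2a1, the fast calcium pump SERCA1, was at 3.65, 5.1 and 5.35 CPM in caNrf2 libraries and 2.31, 3.37 and 4 CPM in ctrl libraries, with overlap (0.55, SE 0.23, adjusted p = 0.127). It was called only with the replicate block (0.55, adjusted p = 0.0421) among its 15 alternatives. Cav3, the caveolin of muscle, did not overlap between the groups, at 1.62 to 2.21 CPM in caNrf2 and 1.06 to 1.33 CPM in ctrl libraries, and lay just outside the threshold (0.68, SE 0.22, adjusted p = 0.0524). It passed with the stricter filter (0.69, adjusted p = 0.0437). Ckm, the muscle creatine kinase of mature fibres, held 21, 26 and 24 counts in caNrf2 libraries and 8, 12 and 17 in ctrl libraries and was not called (0.73, SE 0.37, adjusted p = 0.19).

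The summed level of the markers was higher in caNrf2 libraries. Summed over the 34 markers, TPM was 468, 530 and 551 in caNrf2 libraries and 279, 329 and 309 in ctrl libraries, a ratio of means of 1.69. Of that sum, Pax7, Myf5, Myod1 and Cdh15 together held 0.622% to 0.804% in caNrf2 and 0.679% to 0.848% in ctrl libraries. Sarcomeric actins and troponins held 47.2% to 50% in caNrf2 and 49.3% to 51.3% in ctrl, and myosin chains held 32.7% to 38% in caNrf2 and 32.5% to 33.3% in ctrl. The highest myosin share belonged to caNrf2 replicate 1, where Mylpf held 16% of the sum. Myog held 2.32% to 2.43% in caNrf2 and 2.13% to 2.43% in ctrl libraries. The shares of 28 of the 32 tested markers overlapped between the groups, and the differences in share were not tested. The other 4 did not overlap. No such count was made over all genes, so these 4 are not read as a change in composition. Tnni1 held 5.27% to 5.58% in caNrf2 and 4.24% to 4.9% in ctrl, and Myl4 held 8.64% to 9.7% in caNrf2 and 8% to 8.59% in ctrl. Lower shares in caNrf2 were those of Tnnt2, with 4.22% to 5.09% in caNrf2 and 5.38% to 6.7% in ctrl, and Tnni2, with 1.2% to 1.5% in caNrf2 and 1.6% to 1.93% in ctrl.

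A further 67 muscle genes outside the markers gave a like picture in calls. They too were chosen with earlier results of these data known, so they are no independent check. Of these, 54 were tested, 30 were called higher and 24 not called, with a median log2 fold change of 0.80. Among all genes tested, 12.5% were called higher. The ratio of means of their summed TPM was 1.43, against 1.69 for the markers. It was 1.17 for the 10 of them in metabolism and turnover. None was called lower (0 by each tool). Before adjustment, edgeR gave 2 with p under 0.05 and a lower value, DESeq2 1 and limma-voom 2. The number called higher was less firm than for the markers, at 19 without ctrl replicate 1, 17 without ctrl replicate 3, 16 without caNrf2 replicate 2 and 19 without caNrf2 replicate 3. Another 13 were too low to be tested. Among those called, Sgca, a sarcoglycan gene, held 20, 15 and 29 counts in caNrf2 libraries and 5, 8 and 9 in ctrl libraries. Trim54 and Mymx, given below, also fell under 10 counts in some ctrl libraries. How many genes of this list passed the filter only through caNrf2 was not counted. The 30 calls and the median carry that limit.

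Both genes of the fusion machinery were called higher. Mymk, myomaker, was at 8.56, 8.25 and 9.01 TPM in caNrf2 libraries and 4.57, 5.79 and 5.28 TPM in ctrl libraries (log2 fold change 0.78, SE 0.14, adjusted p = 0.00527). Mymx, myomixer, held 27, 37 and 34 counts in caNrf2 libraries and 10, 18 and 5 in ctrl libraries (1.41, SE 0.33, adjusted p = 0.016), and was named after its values were seen. Six4, a homeobox factor upstream of the myogenic regulators, was called at 1.26 (SE 0.16, adjusted p = 0.000885). Itga7, the laminin receptor subunit of muscle, was called at 1.11 (SE 0.15, adjusted p = 0.00129).

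Adult myosins were low beside the developmental ones. Myh1, a fast adult heavy chain, averaged 1.83 TPM in caNrf2 and 0.663 TPM in ctrl (log2 fold change 1.45, SE 0.19, adjusted p = 0.000923), and Myh7, the slow heavy chain, averaged 1.7 TPM in caNrf2 and 0.89 TPM in ctrl (0.99, SE 0.21, adjusted p = 0.00979). Myh3 averaged 22.5 TPM in caNrf2 and 14.7 TPM in ctrl. Mb, myoglobin, was at 3.63, 3.56 and 3.11 TPM in caNrf2 libraries and 1.45, 1.3 and 1.99 TPM in ctrl libraries and was called at 1.19 (SE 0.24, adjusted p = 0.00801).

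Some muscle-associated genes lay well outside the range of the markers. Jph2, a junctophilin that joins the calcium store to the cell membrane, was at 21.4, 22.2 and 15.8 TPM in caNrf2 libraries and 5.73, 5.55 and 2.38 TPM in ctrl libraries (log2 fold change 2.17, SE 0.29, adjusted p = 0.00107). Trim54, a ubiquitin ligase of striated muscle, held 60, 97 and 56 counts in caNrf2 libraries and 5, 14 and 4 in ctrl libraries (3.04, SE 0.38, adjusted p = 0.000699). Igfn1, a sarcomere-associated protein gene chosen with its value known, was at 12.6, 12.5 and 9.98 TPM in caNrf2 libraries and 0.11, 0.02 and 0.04 TPM in ctrl libraries. No marker on the list had a log2 fold change above 1.09. Other genes stayed near 0 or below, such as Megf10, a receptor of satellite cells that other cells also express (-0.01, SE 0.27), and Fbxo32, the atrogin-1 ubiquitin ligase (-0.28, SE 0.11, adjusted p = 0.118). The sign of Megf10 turned without ctrl replicate 2 (0.29) or caNrf2 replicate 1 (0.18).

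Markers of some other cells also moved. Genes on a list for cardiac muscle were mostly at the edge of detection, with 6 of 10 not tested and 7 of 10 under 1 TPM in every library. The summed TPM of the list was 2.24 to 3.38 in caNrf2 and 2.08 to 3.15 in ctrl libraries. None was called (0 by each tool). Before adjustment, edgeR gave 2 higher and 1 lower with p under 0.05, DESeq2 1 higher and 1 lower, and limma-voom 2 higher and 0 lower. Without ctrl replicate 3, Tbx5 was called lower (log2 fold change -1.80, edgeR adjusted p = 0.00852). Nkx2-5 and Gata4, cardiac transcription factors, were not tested and averaged 0.01 and 0.0333 TPM in caNrf2 and 0.0133 and 0.0267 TPM in ctrl. Genes of smooth muscle and the myofibroblast, which express desmin too, had 6 of 12 higher and 2, Smtn and Myocd, lower. Over all genes tested, the shares called were 12.5% higher and 9.03% lower. Synpo2 (log2 fold change 2.61, SE 0.12) and Tagln (0.81, SE 0.17) were among the higher ones, while Smtn was at -0.70 and Myocd at -1.10. Summed over the 12 genes, TPM was 3822 to 4614 in caNrf2 and 2041 to 3686 in ctrl libraries. Acta2 made up most of that sum and was not called (log2 fold change 0.59, edgeR adjusted p = 0.0678). The groups of Acta2 did not overlap in CPM, with caNrf2 replicate 3 at 2207 and ctrl replicate 2 at 2186. In TPM they did, with caNrf2 replicate 3 at 2395 and ctrl replicate 2 at 2410. Acta2 passed with DESeq2 (adjusted p = 0.00764). In edgeR it passed without a filter (adjusted p = 0.0159), with the replicate block (0.0208) and without ctrl replicate 2 (log2 fold change 0.85).

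Macrophage and leukocyte markers had 9 of 10 higher, with a summed TPM of 198 to 240 in caNrf2 and 26.9 to 81.8 in ctrl libraries, a ratio of means of 3.44 against 1.69 for the muscle markers. Dermal fibroblast genes had 2 of 10 higher and 6 lower, where 9.03% of all genes tested were called lower. Their summed TPM was 9600 to 11724 in caNrf2 and 14202 to 20067 in ctrl libraries. The collagen genes Col1a1, Col1a2 and Col3a1 made up most of that sum and were called lower. Pdgfra (log2 fold change 0.41) and Thy1 (0.40) were called higher, and Dcn (0.04) and Lum (0.45) were not called. The list thus did not move as one. Keratinocyte genes had 1 of 5 tested genes higher, Krt14. That call was lost without ctrl replicate 2 or 3 or caNrf2 replicate 2 or 3. The keratinocyte sum was 186 to 317 TPM in caNrf2 and 134 to 215 TPM in ctrl libraries, with overlap. Melanocyte and Schwann cell genes had 1 of 7 tested genes higher and endothelial genes 1 of 5. Among all genes tested, 12.5% were called higher, so single calls in such short lists are not read as shifts. The part of shifts in other cell types in the muscle result was not tested.

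**Figure D4:**
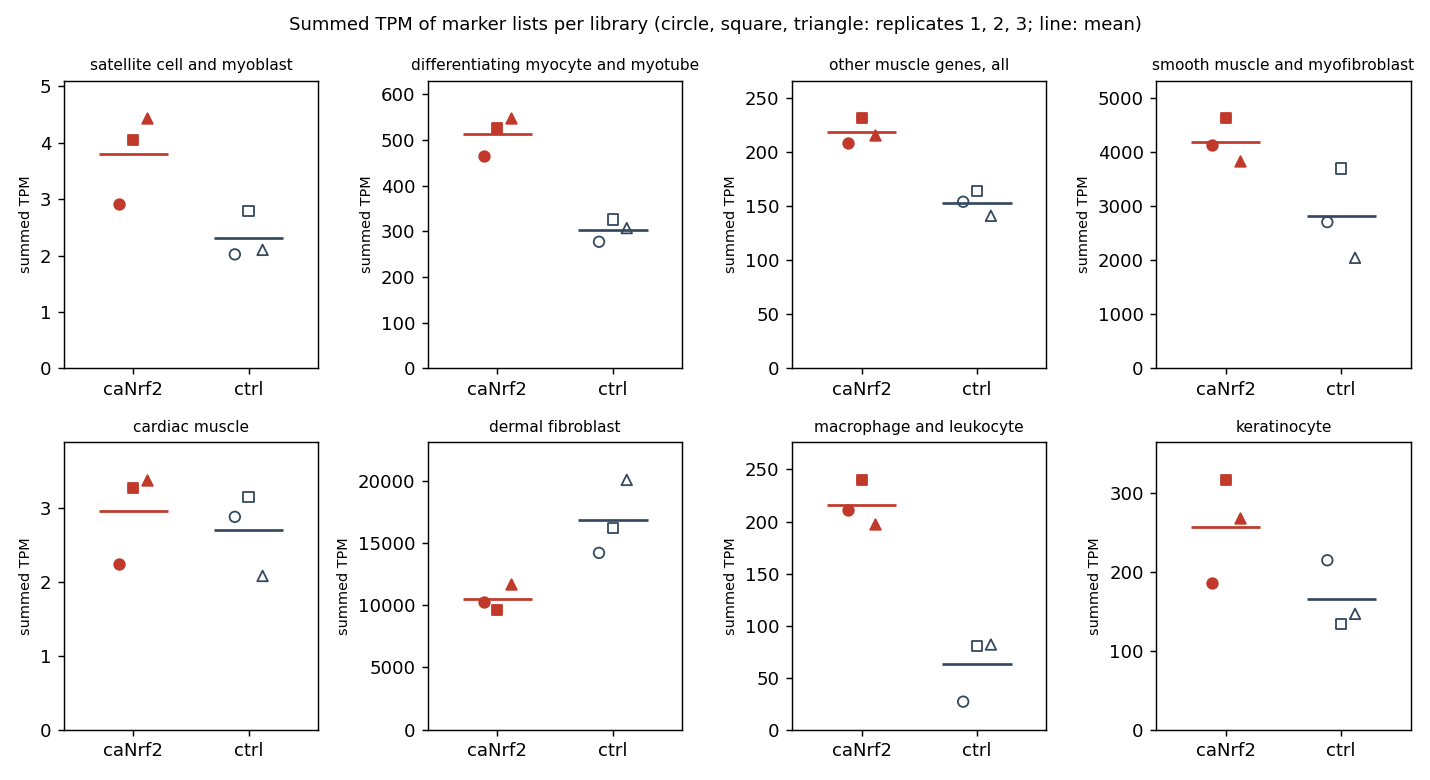
Summed TPM per library of muscle lists and of lists for other cell types, caNrf2 left of ctrl in each panel, with a line at the mean and each vertical axis starting at 0. The differentiating myocyte and myotube list lies at 465 to 547 in caNrf2 and 277 to 326 in ctrl libraries, while the cardiac list overlaps between the groups.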

How the data were processed

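RNA of 3 caNrf2 and 3 ctrl cultures was measured. Per the file headers, the deposited tables hold expected counts for 104129 transcripts, which need not be whole, and TPM; FPKM, also deposited, was not used. CASAVA 1.8, RSEM 1.2.21 and GRCm38 are named per the submitters' processing notes. No source used here gives the aligner, the annotation release or whether counting used strand, so overlapping antisense genes cannot be told apart. RSEM divides reads shared by paralogs.

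For each gene the deposited expected counts (the maximum likelihood estimates) of its transcripts were added up and rounded. R 4.3.3 with edgeR 4.0.16 (low genes removed by filterByExpr with 10 as the minimum count and 15 as the minimum total, TMM, quasi-likelihood F test, no block) was fitted over all 15341 genes kept, with Benjamini-Hochberg adjustment, after the script was tested on simulated data. Standard errors came from the F statistic. CPM uses TMM-scaled library sizes. Symbols came from a reference table that named 42462 of 43629 IDs.

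Alternatives were DESeq2 1.42.0, limma-voom 3.58.1, other scalings and filters, posterior mean counts, a replicate block and each library left out. The members and lists were chosen with earlier results of these data known. The genes named are Nfe2l2, the 34 markers and Igfn1. Of each other list they are the 2 most abundant members and the 3 called ones of smallest p. Not all are printed, and others are added for context (Chrne, Mymx, Sgca, Nkx2-5, Gata4, Col3a1, Pdgfra, Thy1, Dcn, Lum). Counting limits of 3 counts cover counting error only.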

Additional observations from a re-analysis of the deposited data

How the results depend on the processing

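Of the 22 called markers, 18 kept their call in every alternative run; Cdh15, Tnnt2, Tnnt3 and Chrnd did not. Over the 15 alternatives 18 to 26 markers were called higher and 0 lower, and no marker changed direction; the same range of 18 to 26 came from leaving out single libraries. With each library left out in turn, 1342 to 1755 genes were called higher and 823 to 1143 lower over all genes, and 16 to 27 of the other muscle genes were called higher. The lowest counts of lower genes came without ctrl replicate 3 (823) and caNrf2 replicate 2 (864), against 1385 with all libraries. Megf10, which was not called, ran from -0.27 to 0.29 with single libraries left out and turned positive at 0.29 and 0.18; the cause was not tested.

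Same-numbered libraries deviated together at correlations of 0.214, 0.209 and 0.095 over genes, and genes are no independent replicates. Differently numbered libraries lay between -0.242 and 0.112. The sample titles do not say whether same-numbered libraries share a batch, so the replicate numbers were not taken as pairs. Whether they are pairs was not tested. The replicate block called 23 markers higher, 28 other muscle genes higher, and 1888 genes higher and 1330 lower over all. Ckm and Chrnd rest on few counts and are limited by depth; under the stricter filter they gave no value.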
